A study of Sus scrofa with 12 samples.

Results

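The platelet-derived growth factor (PDGF) family comprises the ligand genes PDGFA, PDGFB, PDGFC and PDGFD and the receptor genes PDGFRA and PDGFRB. Members were taken by their gene symbol in the deposited expression table, and 5 of the 6 listed genes were found among its 20674 genes. No row carried the symbol PDGFB, and this ligand was not analysed here. All 5 genes found passed the filter on low counts.

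PDGF ligands are secreted dimers that bind pairs of receptor tyrosine kinases on mesenchymal cells. PDGFRα is the main receptor for PDGF-A and PDGF-C and is typical of fibroblasts and stromal cells, while PDGFRβ is the main receptor for PDGF-B and PDGF-D and is typical of pericytes and vascular smooth muscle. Activated receptors recruit phosphatidylinositol 3-kinase (PI3K) and thereby feed the Akt pathway. In the uterus, these signals act between epithelium or endothelium and the stroma and vessel walls.

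The libraries came from the endometrium of Landrace × Yorkshire sows after 114 days of feeding that spanned gestation. The diet held 3.73% crude fiber in L − N and L + N (together LF) and 7.46% for H − N and H + N (together HF), and L + N and H + N also received 0.05% N-carbamylglutamate (NCG), an activator of arginine synthesis. Fiber was raised by replacing part of the corn with soybean bran and beet pulp, so the diets differed in these ingredients too. Each of the 4 groups had 3 libraries, and the sample labels do not say that each library is a separate sow, so p-values measure the spread between libraries.

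Libraries held 14369781 to 19309724 counted reads. CPM, the read count scaled to the library total with TMM factors, serves for comparing 1 gene between libraries, and the deposited FPKM, which also divides by gene length, for comparing genes. Some libraries stood apart from their groups. L − N replicate 1 had a summed level of 8 smooth muscle markers of 5604 CPM, against 1767 and 2206 in the other L − N libraries, and a summed level of 8 macrophage markers of 936 CPM, against 2548 and 2601. H − N replicate 3 had the highest sums in its group for 10 fibroblast and stroma markers (65402 CPM, against 36454 and 40942) and for 9 epithelial markers (2425 CPM, against 1599 and 1925). In bulk tissue, fewer cells of a type and less RNA per cell cannot be told apart. The platelet markers summed to 9.37 to 13.9 CPM over all 12 libraries, with GP1BB and TREML1 at 3 counts or fewer in each library, and the trophoblast markers to 5.73 to 14.6 CPM, with CDX2 at 0.

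Both receptors were expressed well above the ligands. Per gene length, PDGFRA ranged from 65.4 to 195 FPKM over the 12 libraries (median 120.2) and PDGFRB from 63.6 to 128 FPKM (median 86.4). PDGFC was the leading ligand with 18.6 to 43.8 FPKM (median 27.1), followed by PDGFD with 9.41 to 41.2 FPKM (median 16.9) and PDGFA with 4.98 to 7.98 FPKM. Both receptors exceeded every ligand in 12 of 12 libraries, and PDGFD exceeded PDGFA in 12 of 12. PDGFC exceeded PDGFD in 10 libraries, and the exceptions were H + N replicates 1 and 3. PDGFRA exceeded PDGFRB in 9 of 12 libraries. The lowest raw count of a member was 226, for PDGFA, where counting error alone is 6.65%, so spread between libraries and not depth set the precision.

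**Figure D1:**
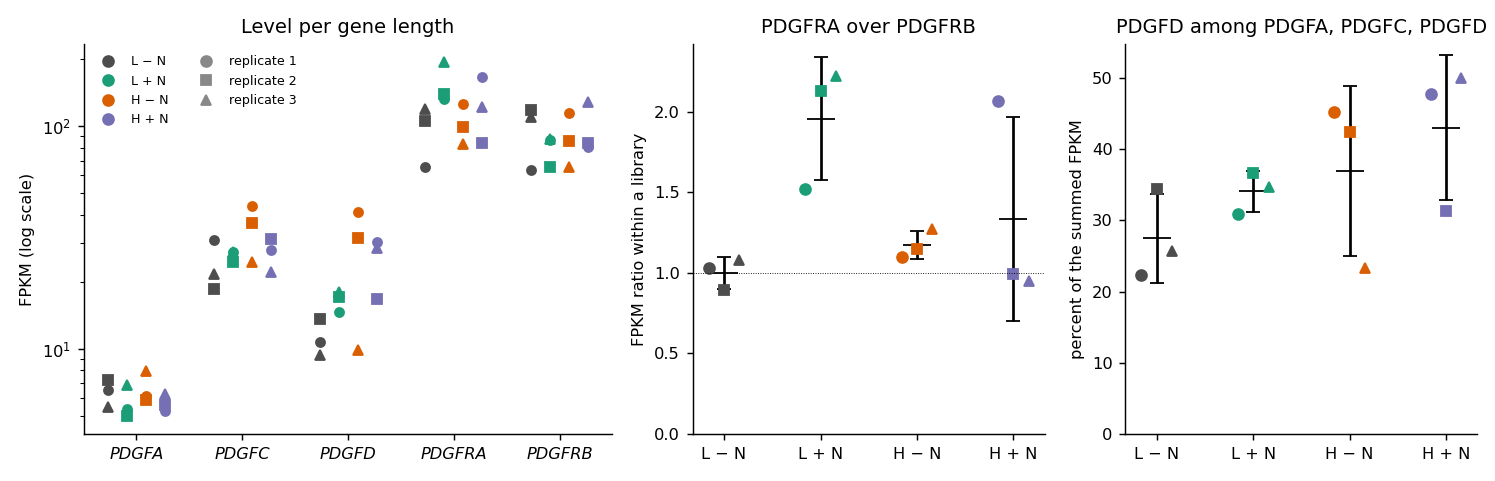
Left, deposited FPKM (log axis) of the 5 PDGF genes in each of the 12 libraries, with color for the group and symbol for the replicate. Middle, the PDGFRA to PDGFRB FPKM ratio, and right, the percent of PDGFD in the summed FPKM of PDGFA, PDGFC and PDGFD, with bars for the group mean ± SD (n = 3). The receptors lie above the ligands in each library, and the 3 L + N libraries have ratios of 1.52 to 2.22, above the L − N and H − N libraries. The ratio was not tested, and 29% of single genes tested do not overlap between H − N and L + N.

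To ask whether fiber or NCG altered these genes, all 12 libraries were fitted in 1 edgeR quasi-likelihood model, and 9 contrasts were taken. They are the 6 pairs of groups, HF against LF, NCG against no NCG, and the fiber by NCG interaction, that is, the NCG effect on the high-fiber diet minus that on the low-fiber diet. Calls required an adjusted p-value under 0.05 and an absolute log2 change above 1. No member was called in any contrast, and the adjusted p-value alone was under 0.05 in 0 of the 45 tests of members (edgeR, Benjamini-Hochberg over 15351 genes). The unadjusted p-value was under 0.05 in 5 of the 45 tests, 3 for PDGFD and 2 for PDGFC. Over all genes tested, the share called was 3.58% for H + N against L − N, 2.91% for H − N against L − N, 3.99% for L + N against L − N, 0.0261% for HF against LF and 1.8% for NCG, and 0% for the other 4 contrasts. By the adjusted p-value alone these shares were 7.97%, 5.27%, 9.6%, 0.0521% and 7.27%, and again 0% for the others. By the unadjusted p-value they were 27.5%, 24.4%, 27.8%, 19.5% and 23.6%, and 8.67% for H + N against H − N, 4.68% for H + N against L + N, 17.8% for H − N against L + N and 12.8% for the interaction. The 5 member tests at an unadjusted p-value under 0.05 fell on H + N against L − N (PDGFD), H − N against L − N (PDGFD and PDGFC), HF against LF (PDGFD) and H − N against L + N (PDGFC). DESeq2 on the same libraries called 1 member, PDGFD, for H + N against L − N and for H − N against L − N, and 0 members for the other contrasts. Its share of all genes was larger than that of edgeR, at 6.44% and 5.95% in these contrasts, 5.75% for L + N against L − N, 1.89% for HF against LF, 2.31% for NCG and 1.2% for the interaction. It was 0.163% for H + N against H − N, 0.013% for H + N against L + N and 1.87% for H − N against L + N.

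**Figure D2:**
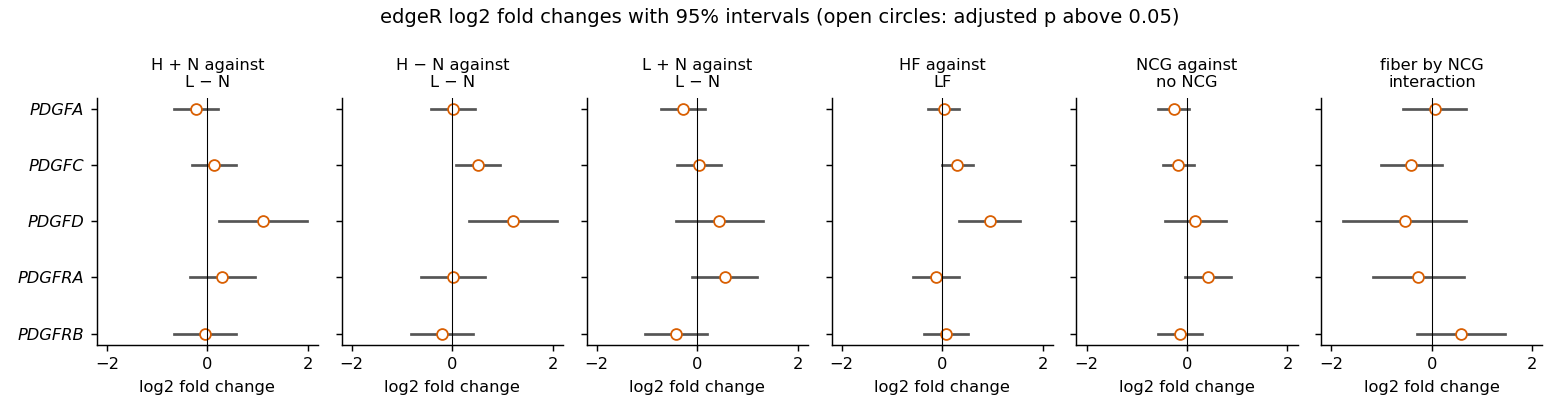
edgeR log2 changes (x axis) of the 5 PDGF genes with 95% intervals in 6 contrasts; an open circle marks an adjusted p-value above 0.05. All circles are open. The intervals of PDGFD exclude 0 for H + N against L − N, H − N against L − N and HF against LF, and that of PDGFC for H − N against L − N.

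PDGFD encodes a ligand of PDGFRβ with an N-terminal CUB domain that must be cleaved off before the growth factor can bind. It had the largest fiber-related difference of the family. In L − N, PDGFD stood at 45.0, 60.1 and 41.8 CPM in replicates 1 to 3, and in L + N at 57.0, 68.9 and 72.7 CPM. In H − N it stood at 166, 132 and 43.7 CPM, and in H + N at 126, 67.5 and 123 CPM. Thus 4 of the 6 high-fiber libraries exceeded every low-fiber library, whereas H − N replicate 3 and H + N replicate 2 lay within the low-fiber range.

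By group, PDGFD averaged 49.0 ± 9.75 CPM for L − N, 66.2 ± 8.17 for L + N, 106 ± 33.1 for H + N and 114 ± 62.9 for H − N (all SD, n = 3). The mean of HF was 110 CPM and that of LF 57.6 CPM, with a log2 change of 0.94 (SE 0.280, 95% interval 0.33 to 1.56, edgeR adjusted p = 0.119). The log2 change was 1.11 for H + N against L − N (SE 0.398, edgeR adjusted p = 0.0998) and 1.22 for H − N against L − N (SE 0.398, edgeR adjusted p = 0.0961). These comparisons share the L − N libraries. H + N and L − N did not overlap, which was so for 28% of the genes tested. The neighbors in the order of group means did not differ beyond their spread. The log2 change was 0.43 for L + N against L − N (95% interval −0.43 to 1.30), 0.67 for H + N against L + N (−0.19 to 1.54) and −0.11 for H + N against H − N (−0.97 to 0.75). With NCG against no NCG it was 0.16 (95% interval −0.45 to 0.77), and the interaction was −0.54 (−1.76 to 0.68).

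The call for PDGFD turned on H − N replicate 3 and on the test. Without that library, the log2 change was 1.60 for H − N against L − N (edgeR adjusted p = 0.0315) and 1.11 for H + N against L − N (edgeR adjusted p = 0.0251), and 1.14 for HF against LF (edgeR adjusted p = 0.0537). With any other library left out, PDGFD was not called, and its log2 change for HF against LF remained between 0.76 and 1.14 over the 12 fits. By DESeq2, the adjusted p-value was 0.0394 for H + N against L − N, 0.0267 for H − N against L − N and 0.0220 for HF against LF, the last at a log2 change of 0.93, short of the fold threshold. In the excepted library, the stroma and epithelium marker sums were the highest of H − N (given above), and their part in its PDGFD level was not tested. PDGFD overlaps DDI1 on the opposite strand, and DDI1 had at most 2 counts in any library.

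**Figure D3:**
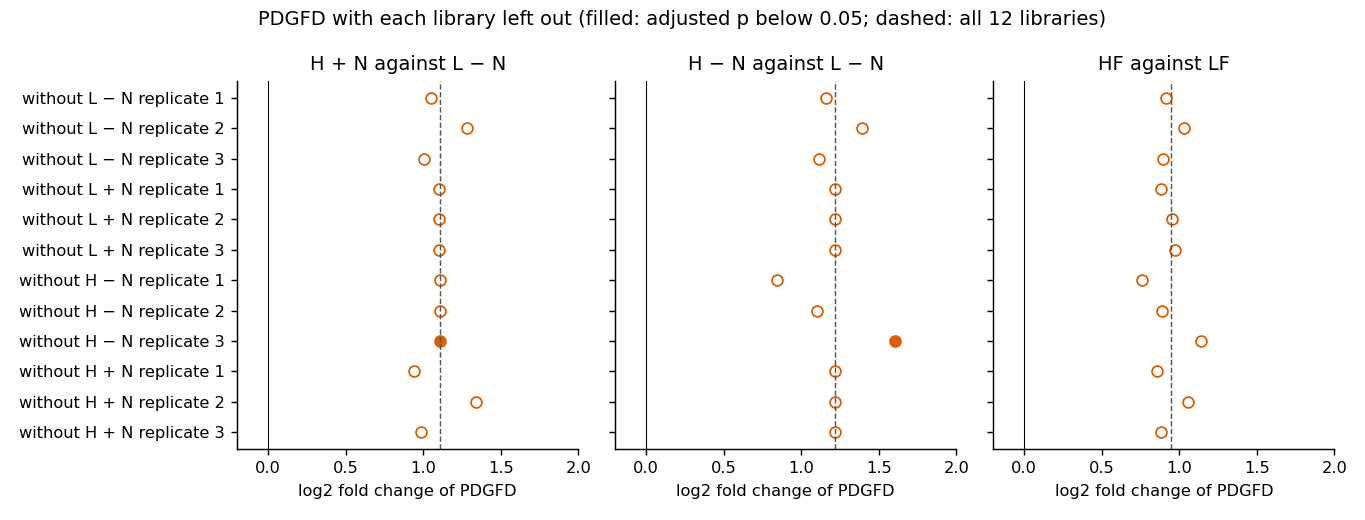
Log2 fold change of PDGFD (x axis) with each of the 12 libraries left out in turn (rows) for H + N against L − N, H − N against L − N and HF against LF; filled circles mark edgeR adjusted p below 0.05 and the dashed line the value with all libraries. All values lie above 0, and only the fits without H − N replicate 3 are filled, in the first 2 contrasts.

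PDGFC, the other ligand with a CUB domain, acts mainly through PDGFRα and was the most abundant ligand. It was at 185, 118 and 138 CPM for L − N, at 152, 141 and 156 CPM for L + N, at 252, 219 and 155 CPM for H − N, and at 166, 179 and 137 CPM for H + N. H − N replicates 1 and 2 were the highest of all libraries, and H − N replicate 3 again lay with the other groups. The group means were 147 ± 34.3 CPM for L − N, 150 ± 7.53 for L + N, 161 ± 21.3 for H + N and 209 ± 49.1 for H − N (all SD, n = 3). For H − N against L − N the log2 change was 0.51 (SE 0.199, edgeR adjusted p = 0.146), and for HF against LF 0.31 (SE 0.140, edgeR adjusted p = 0.260). Without L − N replicate 1, the former was 0.71 with edgeR adjusted p = 0.0383, still short of the fold threshold. L − N, L + N and H + N differed from each other by 0.03 to 0.13 on the log2 scale, less than their spread. For H + N against H − N, the top neighbors in the order, it was −0.38 (95% interval −0.81 to 0.06).

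PDGFA, the ligand whose protein binds PDGFRα in its mature form without a CUB domain, was the least abundant and varied least. It was at 18.7, 21.9 and 16.7 CPM for L − N, at 14.3, 13.7 and 18.9 CPM for L + N, at 16.8, 16.7 and 24.1 CPM for H − N, and at 14.9, 15.4 and 18.6 CPM for H + N. The highest value was that of H − N replicate 3, in which PDGFC and PDGFD were the lowest of their group. The mean was 15.97 ± 2.24 CPM with NCG and 19.1 ± 3.15 without (SD, over 6 libraries each), with overlapping ranges. The log2 change for NCG was −0.26 (95% interval −0.57 to 0.05, edgeR adjusted p = 0.292), and it stayed between −0.33 and −0.16 when each library was left out. For HF against LF it was 0.03 (95% interval −0.28 to 0.34).

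Neither receptor passed the test in any contrast. PDGFRA, the receptor of stromal fibroblasts, was at 416, 706 and 801 CPM for L − N, at 783, 849 and 1183 CPM for L + N, at 762, 623 and 559 CPM for H − N, and at 1049, 510 and 801 CPM for H + N. The L + N libraries lay above all H − N libraries without overlap, as was so for 29% of the genes tested, and all other pairs of groups overlapped. The group means were 641 ± 201 CPM for L − N, 648 ± 104 for H − N, 786 ± 270 for H + N and 938 ± 215 for L + N (all SD, n = 3). For NCG against no NCG the log2 change was 0.41 (SE 0.208, 95% interval −0.04 to 0.87, edgeR adjusted p = 0.252). For L + N against L − N it was 0.55 (SE 0.294, edgeR adjusted p = 0.250), and 0.32 without L − N replicate 1, the lowest of all libraries. For HF against LF it was −0.12 (95% interval −0.58 to 0.34).

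PDGFRB, which in vessels maintains pericytes, was at 387, 757 and 707 CPM for L − N, at 492, 382 and 508 CPM for L + N, at 662, 518 and 420 CPM for H − N, and at 485, 491 and 808 CPM for H + N. All 4 groups overlapped, with means of 461 ± 68.9 CPM for L + N, 533 ± 122 for H − N, 595 ± 185 for H + N and 617 ± 201 for L − N (all SD, n = 3). No pair of groups differed beyond its spread, and the largest pairwise log2 change was −0.42 for L + N against L − N (SE 0.283, edgeR adjusted p = 0.360). It was −0.67 without L − N replicate 1, where PDGFRB was at 387 CPM (edgeR adjusted p = 0.101). For HF against LF it was 0.08 (95% interval −0.36 to 0.52) and for NCG −0.13 (−0.57 to 0.31).

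**Figure D4:**
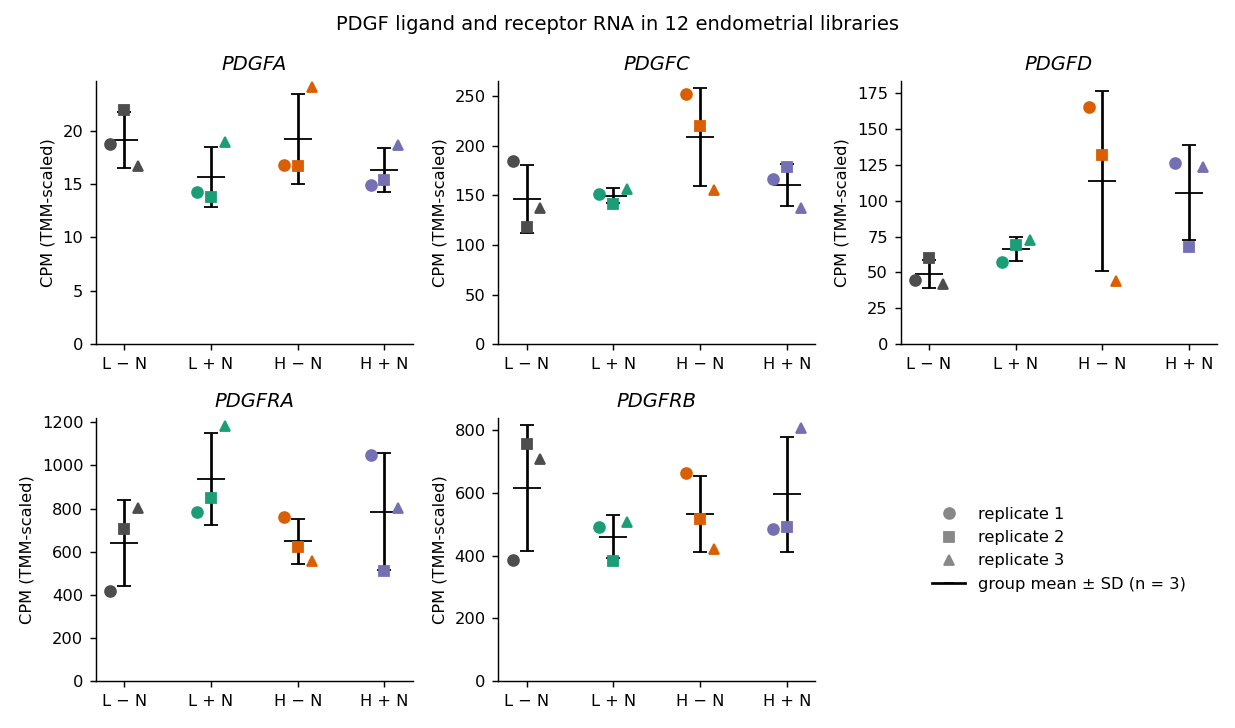
CPM (TMM-scaled) of the 5 PDGF genes in each library by dietary group, with symbols for the replicate and bars for the group mean ± SD (n = 3). The high-fiber and low-fiber libraries overlap for all 5 genes. For PDGFD, 4 of the 6 high-fiber libraries lie above every low-fiber library. So do H − N replicates 1 and 2 for PDGFC, H − N replicate 3 for PDGFA and H + N replicate 3 for PDGFRB.

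The balance of the 2 receptors was described within each library as the FPKM ratio of PDGFRA to PDGFRB, which does not depend on the scaling of libraries. It was 1.03, 0.891 and 1.08 for L − N, 1.52, 2.13 and 2.22 for L + N, 1.10, 1.15 and 1.27 for H − N, and 2.06, 0.993 and 0.947 in H + N. All L + N libraries and 1 H + N library had ratios of 1.52 or more, and all libraries without NCG lay between 0.891 and 1.27. The L + N ratios thus did not overlap with those of L − N or H − N, whereas the H + N ratios spanned both ranges. Of single genes tested, 29% did not overlap between H − N and L + N, and no such share was computed for ratios. The ratio was chosen after the levels were seen and was not tested. Among the 3 ligands, PDGFD made up 22.3 to 34.4% of the summed FPKM for L − N, 31.0 to 36.6% for L + N, 23.3 to 45.2% for H − N and 31.4 to 50.0% for H + N, and PDGFC 39.0 to 64.1% over all libraries.

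Pericyte markers were considered beside PDGFRB, because the receptor is used to identify these cells. RGS5, a regulator of G protein signaling typical of pericytes, stood at 506 ± 19.8 CPM for L − N, 320 ± 28.0 for L + N, 176 ± 6.28 for H − N and 270 ± 66.2 for H + N (all SD, n = 3). No library of the other groups reached L − N. For H + N against L − N alone, 28% of all genes tested did not overlap. Its log2 change against L − N was −1.52 for H − N (SE 0.164, edgeR adjusted p = 0.00796), −0.90 for H + N (SE 0.162, edgeR adjusted p = 0.0168) and −0.66 for L + N (SE 0.161, edgeR adjusted p = 0.0284). For H − N it passed in 11 of the 12 leave-one-out fits (edgeR adjusted p = 0.0529 without H − N replicate 1), and for H + N in 10 (up to 0.0734, lost without L − N replicate 3 or H + N replicate 1). For L + N it passed in 7, with an adjusted p of up to 0.111, and was lost without L − N replicate 2 or 3 or any 1 L + N library. Over the 10 pericyte markers, the sum was 1207 to 1271 CPM for L − N, 729 to 850 for L + N, 638 to 766 for H − N and 716 to 910 in H + N. Of these 10 genes, 3 fell in L + N (RGS5, CSPG4 and MCAM), 2 for H − N (RGS5 and CSPG4) and 1 for H + N (RGS5) against L − N, and 0 rose (adjusted p alone). CSPG4 passed in 7 of 12 leave-one-out fits for L + N (edgeR adjusted p up to 0.120) and in 7 for H − N (up to 0.0864). MCAM passed in 8 for L + N (up to 0.0725). By direction alone, 1 of the 10 was higher in each of these comparisons against L − N, and the others were lower. Some were lower by less than RGS5. In the same order, the log2 change of NOTCH3 was −0.24, −0.07 and −0.18, and that of KCNJ8 −0.44, −0.46 and −0.28. ANGPT1, at low counts, was higher, at 0.36, 0.20 and 0.61. The shares of all genes tested that were lower in these comparisons were 3.63%, 3.71% and 3.66%. For HF against LF, RGS5 fell alone of the 10, at −0.88 (edgeR adjusted p = 0.0343, lost in 8 of 12 fits with 1 library left out), where 0.0456% of all genes were lower and 0.00651% higher. The median log2 change of the list was −0.72, −0.63 and −0.32 in these comparisons, and that of all genes tested −0.02, 0.03 and 0.02. Lower medians were not particular to pericyte markers. In the same order they were −1.51, −1.06 and −1.10 for smooth muscle markers, −0.98, −1.64 and −0.98 for macrophage markers and −0.50, −0.35 and −0.29 for endothelial markers. The medians were positive for fibroblast and stroma markers (0.18, 0.34 and 0.27) and for epithelial markers (0.25, 0.40 and 0.03). The values of PDGFRB against L − N were −0.42, −0.21 and −0.05. The difference between PDGFRB and RGS5 was not tested.

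**Figure D5:**
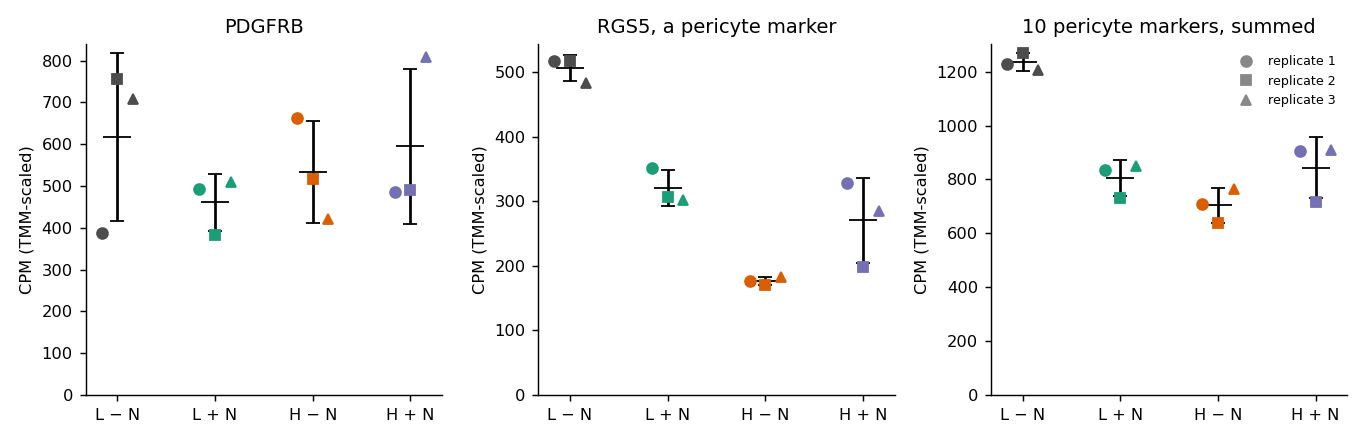
CPM (TMM-scaled) of PDGFRB, of the pericyte marker RGS5 and of 10 pericyte markers summed, in each library by group, with symbols for the replicate and bars for the group mean ± SD (n = 3). RGS5 and the marker sum are highest in the 3 L − N libraries without overlap, while PDGFRB overlaps among all 4 groups. For H + N against L − N alone, 28% of all genes tested do not overlap.

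Markers of other cell types were summed likewise. Beside PDGFRA, the 10 fibroblast and stroma markers summed to 30907 to 33487 CPM for L − N, 27669 to 49488 for L + N, 36454 to 65402 for H − N and 36333 to 64531 in H + N. Single markers did not all follow this sum. Only 6 of the 10 were higher in H − N than in L − N, with a median log2 change of 0.34. By edgeR, 2 fell there, both past the fold threshold, and 0 rose (adjusted p alone). Among all genes tested, 3.71% were lower and 1.56% higher in that comparison. With L + N or H + N in place of H − N, 0 of the 10 rose or fell. The smooth muscle sums were 1767 to 5604 CPM for L − N and 939 to 1728 over the other groups. The endothelial sums were 1195 to 1654 CPM for L − N, 837 to 1021 for L + N, 1096 to 1197 for H − N and 941 to 1264 in H + N. The epithelial sums were 1062 to 1572, 1523 to 1596, 1599 to 2425 and 1266 to 1417 CPM in the same order, and those of macrophages 936 to 2601, 809 to 1173, 491 to 719 and 798 to 1009 CPM. The part of these sums in the PDGF values was not tested.

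Further genes of the pathway were taken from 4 lists by role, and rose or fell is used for an adjusted p-value alone under 0.05. The first list holds 9 genes for co-receptors and ligand processing. Among them are NRP1 and LRP1, which bind PDGF receptors or ligands, and the proteases PLAT and PLAU, which activate PDGF-C and PDGF-D. By edgeR, 0 of the 9 rose or fell in any contrast, where 0% to 9.6% of all genes tested did so. At an unadjusted p-value under 0.05 there was 1 for H + N against L − N and 0 for HF against LF. The shares of all genes were 27.5% and 19.5%. FURIN, a protease that processes PDGF-A, had the smallest p-value of this list for NCG, with a log2 change of −0.25 (SE 0.116, edgeR adjusted p = 0.221).

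Among 20 adaptors and effectors of the receptors, 2 rose and 0 fell with NCG, where 5.67% of all genes tested rose and 1.6% fell. PIK3CA, the catalytic p110α subunit of PI3K, stood at 38.1 CPM without and 63.4 CPM with NCG, without overlap (3.99% of all genes), at a log2 change of 0.73 (SE 0.181, edgeR adjusted p = 0.0344). It passed in 5 of 12 leave-one-out fits, with an adjusted p of up to 0.0839, and was lost without any 1 L − N library, L + N replicate 1 or 2, H − N replicate 2 or H + N replicate 1. SOS1, a Ras exchange factor, had a log2 change of 0.39 (SE 0.0969, edgeR adjusted p = 0.0346), passed in 4 of 12 such fits (up to 0.0928) and was lost without any 1 low-fiber library, H − N replicate 1 or H + N replicate 1. PIK3R1, the p85α subunit that docks on phosphorylated receptors, stood at 204 ± 25.6 CPM for L − N, 278 ± 28.7 for L + N, 374 ± 54.0 for H − N and 379 ± 95.4 for H + N (all SD, n = 3). Against L − N its log2 change was 0.89 for H + N (SE 0.194, edgeR adjusted p = 0.0262) and 0.88 for H − N (SE 0.194, edgeR adjusted p = 0.0322). Over all genes tested 4.31% rose in the first comparison and 1.56% in the second. PIK3R1 for H + N was lost without L − N replicate 2 or 3 or H + N replicate 1 or 3 (up to 0.0889), and in H − N without L − N replicate 2 or 3, L + N replicate 2 or any 1 H − N library (up to 0.101). In L + N against L − N, 5.97% of all genes rose and 3.63% fell. There SOS1 rose and GRB2, the adaptor that brings SOS1 to receptors, fell, with log2 changes of 0.51 and −0.47 (edgeR adjusted p = 0.0396 and 0.0410). SOS1 was lost there without any 1 low-fiber library (up to 0.143), and GRB2 without L − N or L + N replicate 2 or 3, H − N replicate 1 or 2 or H + N replicate 1 (up to 0.151).

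Of 11 inhibitors, PTPRJ, a receptor phosphatase that acts on PDGFRβ, fell in H + N against L − N, where 3.66% of all genes tested fell. Its log2 change was −0.77 (SE 0.179, edgeR adjusted p = 0.0300), and its call was lost without L − N replicate 2 or 3 or H + N replicate 1 or 3 (up to 0.110).

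Of 12 early target genes, which growth factors induce within the first hours, 0 rose in any contrast. Of all genes tested, at most 5.97% rose in a contrast, so a count of 0 among 12 is near that share. FOSB and EGR1, both transcription factors, were called lower in H − N against L − N, where 3.71% of all genes tested were lower at the adjusted p-value alone. EGR1 stood at 86.9 ± 26.4 CPM for L − N, 83.5 ± 20.8 for L + N, 39.1 ± 5.54 for H − N and 86.5 ± 15.1 for H + N (all SD, n = 3), at a log2 change of −1.15 for H − N against L − N (SE 0.240, edgeR adjusted p = 0.0279). FOSB stood at 10.1 ± 3.84 CPM for L − N and 1.75 ± 0.459 for H − N (all SD, n = 3), at a log2 change of −2.51 (SE 0.421, edgeR adjusted p = 0.0192). EGR1 was lost without L − N replicate 2 or 3 or any 1 H − N library (up to 0.0836), and FOSB without L − N replicate 3 or H − N replicate 1 (up to 0.0580). SRF, a transcription factor of early genes, fell in L + N against L − N, where 3.63% of all genes tested fell. Its log2 change was −0.40 (edgeR adjusted p = 0.0365), and its call was lost without any 1 low-fiber library or H − N replicate 2 (up to 0.125). Against L − N, the median log2 change of the 12 genes was −0.63 for H − N, −0.43 for L + N and −0.11 for H + N, and that of all genes tested 0.03, −0.02 and 0.02. In edgeR fits of the 2 groups alone, the calls of RGS5, PIK3R1 and PTPRJ in H + N, of PIK3R1, FOSB, EGR1 and CSPG4 for H − N and of GRB2, SRF and CSPG4 in L + N, all against L − N, were lost. With the replicate number added to the model, those of GRB2, SOS1 and SRF in L + N against L − N were lost. The same held for SOS1 with NCG and RGS5 for HF against LF.

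The genes tested, except those with symbols that start with LOC, were ranked by likeness of log2 CPM to each member over the 12 libraries. The 3 with the highest Pearson's r are given as a description. Taking the highest r of so many genes favors high values. The libraries share the dietary groups and their tissue makeup, so the r within groups, from deviations from the group means, is given beside it. For PDGFD they were RUSC1 (r = 0.937, within groups 0.925), MTHFD1, a folate enzyme (0.935 and 0.906), and NMU, which encodes neuromedin U (0.932 and 0.914). For PDGFC they were RPL23A, a ribosomal protein gene (0.964 and 0.943), TRNP1 (0.949 and 0.944) and PNMA1 (0.944 and 0.918). For PDGFA they were the glucose transporter SLC2A1 (0.898 and 0.873), the lysosomal glucosidase GAA (0.894 and 0.891) and MVB12A (0.893 and 0.877). For PDGFRA they were C2H11orf80 (0.912 and 0.891), ZSCAN23 (0.879 and 0.835) and GDF11 (0.876 and 0.895), and for PDGFRB the cell cycle kinase CDK4 (0.928 and 0.930), NT5DC2 (0.922 and 0.978) and the gene described as septin 9 (0.920 and 0.925). Some of these genes were low, so their r is less certain. NMU was at 0 to 4.15 CPM (median 0.450), ZSCAN23 at 1.17 to 2.22, TRNP1 at 2.26 to 6.89 and C2H11orf80 at 2.28 to 6.21 CPM. SLC2A1, MTHFD1, C2H11orf80, NT5DC2 and septin 9 overlap other genes, and the counting strand is not known. No member was among the 3 nearest genes of another.

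The 5 genes lie apart in the pig genome (Sscrofa11.1). PDGFRA spans bases 40966568 to 41021440 of chromosome 8 and PDGFC bases 45579065 to 45808789 of the same chromosome. PDGFD lies on chromosome 9 (34388636 to 34621227), PDGFRB on chromosome 2 (151155753 to 151192818) and PDGFA on chromosome 3 (296399 to 322967). Between the 2 genes on chromosome 8, r over the 12 libraries was −0.262.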

How the data were processed

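Poly(A) RNA of endometrium was extracted with Trizol and sequenced as strand-specific libraries per the paper's methods. The authors deposited 1 table with a raw read count and an FPKM value per gene and library, the latter derived by the authors from count, gene length and library total. The submitters' processing notes name fastp 0.22.0, HISAT2 2.1.0 and HTSeq 0.9.1, and Sscrofa11.1, while the counting strand is not given in the sources used here. Libraries were grouped by their titles. Coordinates are those of the table and equal the RefSeq annotation for all 5 members.

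Counts were filtered by filterByExpr (15351 genes kept), scaled by TMM and fitted with edgeR 4.0.16 in R 4.3.3 (quasi-likelihood, one mean per group, 8 residual degrees of freedom), with Benjamini-Hochberg adjustment over all genes tested. Thresholds followed the paper, which used DESeq2. Log2 CPM used a prior count of 2. Alternatives were RLE scaling, no filter, DESeq2 1.42.0, each pair of groups alone, a replicate block and each library left out. The test was tested on simulated data for H + N against L − N on 15351 genes, where it found 31.8% of 200 genes changed by 1 on the log2 scale and 83% of those changed by 2. False calls averaged 4.67 and 6 genes per run, over 3 runs each. Replicates differed by a chi-square of 23.7 to 103 per gene, far above counting error. Members, lists and tests were chosen with earlier results of these data known. Named pathway genes are those past an adjusted p-value under 0.05 in any contrast and the gene of each list with the smallest p for NCG. One gene that this rule names is not reported here. Of the symbols listed, PAX8, PF4, PAG2 and PAG3 were not analysed here. CCN1 and CCN2 were matched by their older symbols.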

Additional observations from a re-analysis of the deposited data

How the results depend on the processing

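The number of PDGF genes called was 0 in each contrast and moved to 1, in each case PDGFD, for H + N against L − N with DESeq2 on all libraries or on 2 groups alone, and with DESeq2 on all libraries also for the contrast of H − N to L − N. Over the fits that each left out 1 library it ran from 0 to 1 for both of these contrasts, with 1 without H − N replicate 3. With the replicate block the number was 0 in all 9 contrasts, and PDGFD had a log2 change of 1.12 for H + N against L − N (edgeR adjusted p = 0.133). The labels do not say what the replicate numbers of the titles stand for. Deviations from the group means correlated at −0.322 to 0.283 over 18 same-numbered pairs, above 0.1 in 3. Over 36 differently numbered pairs the range was −0.323 to 0.284, above 0.1 in 8. Whether same-numbered libraries shared a batch was not tested. RLE scaling, no filter and 2 groups alone in edgeR changed no call of a member. Pathway calls with the fold threshold moved in 13 of the alternatives for early target genes and in 1 for adaptors and effectors. Over all genes, the number called for H + N against L − N was 549, and 988 with DESeq2, 804 and 87 with DESeq2 and edgeR on 2 groups alone, 1 without H + N replicate 1, and 948 if L − N replicate 1 was left out. For H − N against L − N it was 446, and 913 with DESeq2, 254 with the replicate block, 3 with edgeR on 2 groups alone and 0 to 1120 with 1 library left out. For HF against LF it was 4, and 290 with DESeq2. The cause of these shifts was not tested.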

Other observations

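Similarity among the PDGF genes themselves was weak over the 12 libraries. Pearson's r of log2 CPM ranged from −0.283, for PDGFA and PDGFD, to 0.533, for PDGFC and PDGFD, the ligands with a CUB domain. Taken as deviations from the group means, it was highest for PDGFRA and PDGFRB, at 0.600, and lowest for PDGFA and PDGFC, at −0.590. PDGFRL, a receptor-like gene without a kinase domain, ranged from 18.8 to 49.4 CPM and had a log2 change of 0.07 for HF against LF (SE 0.248, edgeR adjusted p = 0.906).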
